A study of Panax japonicus with 15 samples.

Results

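In the pericarp of Panax japonicus, 23 of 462117 transcript clusters had RNA levels that fell in 4 steps through the fruit-colour periods G, Y, R, B and P. Panax japonicus is a medicinal herb of the ginseng genus, and pericarp is the fruit wall, from which the seed had been removed with a scalpel. Total RNA was extracted, and 15 libraries were made from its mRNA and sequenced, 3 biological replicates in each of the 5 periods. The labels give the periods by letter alone, as G period, Y period, R period, B period and P period, with no order, no control, and no age, strain or treatment beyond the letter; how the replicates relate to plants or harvest days is not stated. The order G, Y, R, B, P was set by how alike the transcriptomes of the periods are and is not a stated time course.

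A transcript cluster was a member when its period means on the log2(TPM + 1) scale fell by at least 0.4 at each of the 4 steps, with G minus Y under 1, when each G library held at least 10 TPM, and when each G library held at least 2 times the value of each P library. TPM divides reads by transcript length and scales every library to the same total, so it is a share of the library's RNA and not an amount per cell. In bulk tissue, fewer cells of a type and less RNA per cell cannot be told apart. The rule used the means of all 5 periods, so every difference between periods given here for the 23 describes how they were chosen and is not evidence for it.

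As background, fruit walls that change colour lose chlorophyll as the photosynthetic apparatus is taken down and build up carotenoids, which are plastid pigments, or anthocyanins, which are flavonoid pigments of the vacuole. Transcript levels of many genes change in graded fashion through such a transition, and others switch between adjacent stages. The deposited table gives only identifiers of the form Cluster-number.number unpaired with gene names, so no function is assigned to any of the 23, none is tied to a pigment pathway, and no sequence or genome position is given.

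The 23 were a narrow selection. Of the 462117 transcript clusters, 9999 held at least 10 TPM in each G library, and 1308 of those also held at least 2 times each P library in each G library. All 4 steps reached 0.4 in 49 of the 1308, and G minus Y was under 1 in 23 of the 49. Among the 1308, the period means fell in the order G, Y, R, B, P by any amount in 371, or 28.4%, against 97 for G, R, Y, B, P and 89 for G, Y, B, R, P, the next most frequent orders with G first and P last. The full rule with Y and R exchanged found 6 rows, with R and B exchanged 3, with G and Y exchanged 10, and with B and P exchanged 22. With all 5 periods reversed, falling from P to G, it found 16. The number of rows was therefore nearly the same whether B or P stood last.

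The libraries differed in how much they detected. The number of transcript clusters above 0 TPM was lowest in P replicate 1, at 97466, and highest in P replicate 3, at 187300, and was between 130422 and 180948 in the other 13 libraries. Among the 9999 rows at 10 TPM or more in each G library, 8.35% were listed at 0 in P replicate 1, 4.85% in P replicate 2 and 1.41% in P replicate 3, against 0.750% to 3.02% in the Y, R and B libraries. Transcript clusters with at least 1 TPM in at least 3 libraries held 68.1%, 73.6% and 78.4% of all TPM in P replicates 1 to 3. In the G, Y, R and B libraries they held between 82.0% and 92.4%. Read depth is unknown, because TPM keeps none. The part of depth or of these shares in the values of the P libraries was not tested.

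Together, the 23 held a shrinking share of the RNA from G to P, with no overlap of libraries between adjacent periods. Their summed level was 1443, 1565 and 1648 TPM in G replicates 1 to 3, against 1020, 1034 and 898 TPM in Y. It was 708, 616 and 527 TPM in R, 272, 234 and 308 TPM in B, and 78.5, 103 and 226 TPM in P. P replicate 3 came close to the lowest B library, and the other 2 P libraries stood far lower. The period means were 1552 ± 103, 984 ± 74.99, 617 ± 90.5, 272 ± 36.8 and 136 ± 79.0 TPM in G, Y, R, B and P (SD, n = 3 each), or 0.155% of all TPM in G and 0.0136% in P. The sum is weighted to the most abundant members, and the choice of members fixes its direction.

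**Figure D1:**
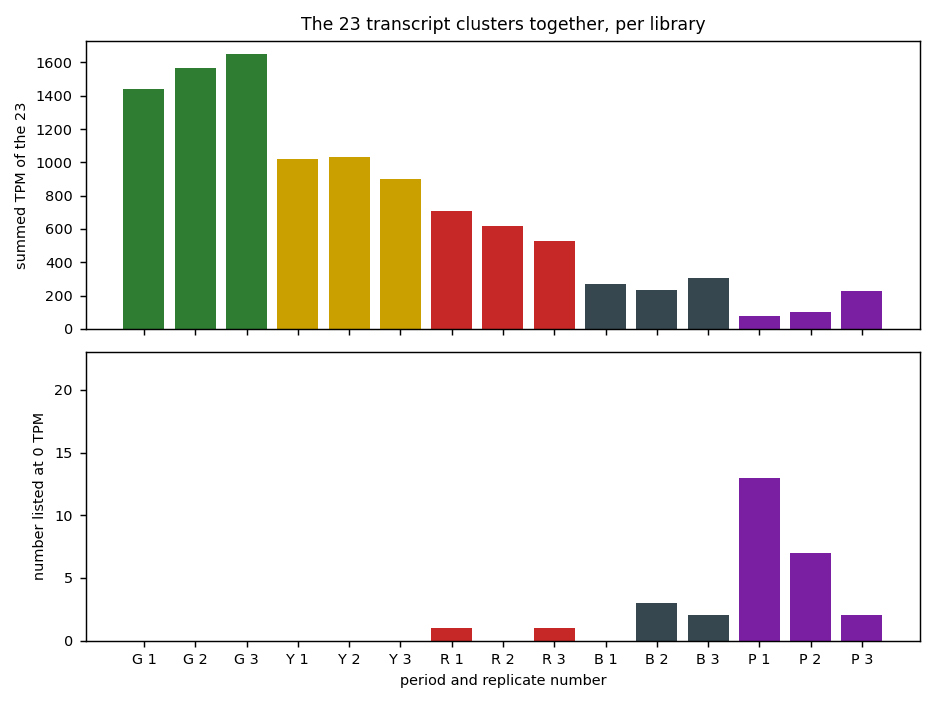
Summed TPM of the 23 transcript clusters (upper panel) and the number of them listed at 0 TPM (lower panel) in each of the 15 libraries, grouped by period from G to P and coloured by period. The sum is between 1443 and 1648 TPM in the G libraries and between 78.5 and 226 TPM in the P libraries, while 13, 7 and 2 of the 23 are listed at 0 in P replicates 1, 2 and 3.

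Individually the 23 ranged widely in abundance. Mean TPM in G ran from 14.2 to 271 with a median of 36.1, and the members ranked between 246 and 12690 among all transcript clusters by mean TPM in G. In all, 4 members stood above 100 TPM in G, 4 between 50 and 100, 12 between 20 and 50, and 3 under 20. The median member had 25.4 TPM in Y, 15.0 in R, 9.26 in B and 5.59 in P. G minus P ran from 2.09 to 5.43 on the log2(TPM + 1) scale, with a median of 3.38, while the median over all 138664 transcript clusters with at least 1 TPM in at least 3 libraries was 0.15.

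On the TPM as deposited the median step grew from G to P, an order that was lost with median-ratio scaling. G minus Y had a median of 0.61 over the 23 and ran from 0.40 to 0.94, a range whose upper end the rule itself bounds. Y minus R had a median of 0.67 and reached 1.30, R minus B had a median of 0.73 and reached 3.37, and B minus P had a median of 0.92 and reached 2.63. Over all 138664 transcript clusters the medians were -0.06 for G minus Y, -0.01 for Y minus R, 0.00 for R minus B and 0.26 for B minus P. B minus P was the largest step in 13 members, R minus B in 7, Y minus R in 3 and G minus Y in 0. Between R and P lay more than 50% of the fall in 21 of the 23, with a median share of 60.7%. Of the 4 steps, the rule limits only G minus Y from above, which favours the later ones. Nothing is read from these shares and largest steps, which are on the TPM as deposited. Rescaling the libraries by the median ratio lowered the median B minus P of the 23 to 0.69 and raised their median G minus Y to 0.74. The medians of Y minus R and R minus B were then 0.67 and 0.70. G minus Y was thus the largest median step, though the 4 lay close together. With that scaling the median over all tested transcript clusters was 0.11 for B minus P and 0.00 for G minus Y, against 0.26 and -0.06 on the TPM as deposited. The scaled medians are over all 23, of which 16 still met the rule after scaling. With 0.1 in place of 1 added to the TPM as deposited, the median steps were 0.62, 0.73, 0.77 and 1.72 from G to P. The growth of the steps from G to P thus depended on the scaling, and its size on the value added to TPM.

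**Figure D2:**
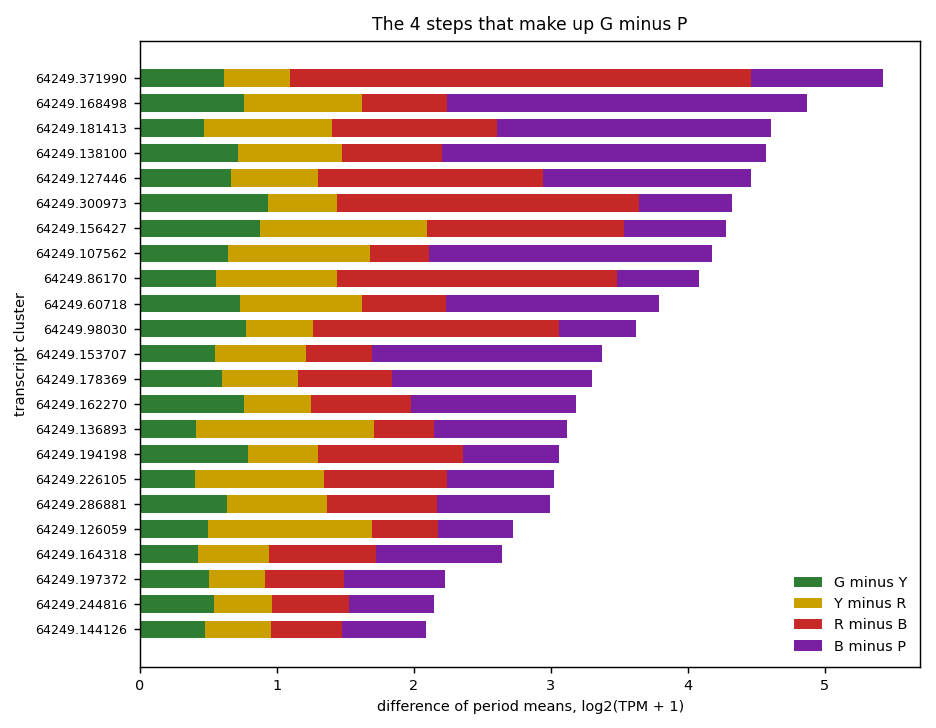
Differences between adjacent period means on the log2(TPM + 1) scale for each of the 23 transcript clusters, stacked so that the whole bar is G minus P and sorted with the largest at the top. Whole bars run from 2.09 to 5.43, and the R minus B and B minus P segments make up more than 50% of the bar in 21 of the 23. The rule limits only the G minus Y segment from above, so nothing is read from this share.

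In 7 members the largest step was from R to B. Cluster-64249.86170 was the most abundant of the 23 in G. It stood at 137, 290 and 387 TPM in G, 196, 177 and 138 TPM in Y, 87.2, 78.6 and 111 TPM in R, 20.9, 18.7 and 24.9 TPM in B, and 12.3, 15.0 and 14.2 TPM in P. Its G and Y libraries overlapped, with G replicate 1 below all 3 Y libraries, whereas Y, R, B and P were separate. Its R minus B was 2.05 ± 0.30 (SE), against 0.56, 0.88 and 0.60 for its other steps, and its mean level in G was 19.7 times that in P.

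Cluster-64249.127446, next in abundance, fell without overlap through all 5 periods. It had 199, 316 and 294 TPM in G, 163, 179 and 158 TPM in Y, 131, 115 and 80.03 TPM in R, 24.1, 30.9 and 50.5 TPM in B, and 4.71, 14.3 and 19.0 TPM in P. Every library of a period lay above every library of the next. R minus B was 1.64 and B minus P 1.52 (SE 0.40 each), so that on the log2 scale 70.8% of its fall lay between R and P. In TPM the larger part came before, with means of 269.7, 109 and 12.7 TPM in G, R and P.

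Cluster-64249.371990 had the largest G minus P, 5.43 ± 1.14 (SE), and was uneven where it was low. It had 132, 97.3 and 167 TPM in G, 69.5, 84.7 and 101 TPM in Y and 62.5, 75.8 and 45.2 TPM in R. It was at 18.0 and 9.77 TPM in B replicates 1 and 3 and listed at 0 in B replicate 2, and at 26.5 TPM in P replicate 3 and listed at 0 in P replicates 1 and 2. P replicate 3 thus stood above all 3 B libraries, and the mean of B, 9.25 TPM, was close to that of P, 8.84 TPM. R and B were the only adjacent periods without overlap, with a step of 3.37.

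Cluster-64249.98030 kept its first 3 steps apart. It had 28.4, 27.2 and 16.4 TPM in G, 15.3, 11.9 and 12.7 TPM in Y, 8.79, 7.79 and 11 TPM in R and 1.97, 1.64 and 2.16 TPM in B. In P it was listed at 0 in replicate 1 and had 2.41 and 1.25 TPM in replicates 2 and 3. Only P and B overlapped, and R minus B was 1.79 ± 0.39 (SE).

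Cluster-64249.300973 had a mean of 34.0 ± 9.99 TPM in G, 17.5 ± 5.92 in Y, 11.7 ± 1.59 in R, 2.66 ± 3.16 in B and 1.32 ± 2.28 in P (SD, n = 3 each). It was listed at 0 in B replicate 3 and in P replicates 1 and 2, so its last step rests on 1 P library of 3.95 TPM and B libraries of 6.15 and 1.83 TPM. Cluster-64249.194198 had means of 51.0 ± 12.0, 29.7 ± 10.97, 20.2 ± 5.31, 9.26 ± 3.02 and 9.48 ± 8.43 TPM in the same order (SD, n = 3 each). Its mean TPM was thus slightly higher in P than in B, and it met the rule on the log scale because P replicate 1 was listed at 0 while P replicates 2 and 3 had 12.3 and 16.1 TPM. Cluster-64249.156427 was listed at 0 in 6 libraries, all 3 of P, B replicates 2 and 3 and R replicate 1. It had 10.2, 21.5 and 28.4 TPM in G and no pair of adjacent periods without overlap.

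In 13 members the largest step was from B to P. Cluster-64249.138100 had 259, 139 and 193 TPM in G, 149, 93.9 and 111 TPM in Y, 85.2, 68.0 and 53.8 TPM in R and 19.0, 54.9 and 63.5 TPM in B. It was listed at 0 in P replicate 1 and had 15.4 and 31.0 TPM in P replicates 2 and 3. Y and R were its only separate adjacent periods, and B minus P was 2.37 ± 0.91 (SE).

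Cluster-64249.162270 was the other member whose 15 libraries fell without overlap from period to period. It had 52.7, 62.2 and 42.4 TPM in G, 35.2, 31.2 and 24.9 TPM in Y, 20.1, 20.3 and 23.3 TPM in R, 16.2, 11.7 and 10.01 TPM in B, and 4.02, 3.08 and 8.57 TPM in P. Each step was between 0.49 and 1.21 with an SE of 0.31, and no library of this member was listed at 0.

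Among the 13 members whose largest step was B minus P, Cluster-64249.181413 and Cluster-64249.168498 had the lowest levels in P. Cluster-64249.181413 had 17.7, 25.0 and 34.4 TPM in G, 19.2, 19.0 and 15.1 TPM in Y, 12.2, 11.6 and 4.56 TPM in R and 3.49, 2.74 and 3.50 TPM in B. It had 0.190 TPM in P replicate 3 and was listed at 0 in P replicates 1 and 2; G and Y overlapped and the other adjacent periods did not. Cluster-64249.168498 was listed at 0 in all 3 P libraries and had 8.53, 3.46 and 4.55 TPM in B. Its G libraries had 15.3, 32.4 and 45.0 TPM and its Y libraries 24.5, 41.9 and 3.75 TPM, so that Y overlapped with both G and R.

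Even steps marked 4 members of this group, and all of them but Cluster-64249.286881 had a small G minus P. Cluster-64249.144126 had the smallest G minus P, 2.09, with steps of 0.47, 0.49, 0.52 and 0.61. It had 36.7, 26.6 and 26.7 TPM in G, 20.5, 20.9 and 22.0 TPM in Y, 12.7, 13.2 and 19.2 TPM in R, 9.96, 12.1 and 8.28 TPM in B, and 2.40, 10.9 and 8.24 TPM in P. Only B and P overlapped. Cluster-64249.244816 fell by 2.15 and Cluster-64249.197372 by 2.23, with mean levels of 69.1 and 37.7 TPM in G against 15.4 and 7.61 TPM in P. Cluster-64249.286881 had steps between 0.63 and 0.82, yet all 4 of its adjacent pairs of periods overlapped, with 20.8, 43.4 and 12.1 TPM in Y against 9.76, 17.3 and 13.0 TPM in R.

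Cluster-64249.60718 met the rule through the log scale. It had 37.8, 32.8 and 13.3 TPM in G, 6.64, 21.4 and 22.95 TPM in Y, and 82.3, 6.67 and 0 TPM in R. B had 13.7, 0 and 11.2 TPM and P had 0, 0 and 6.07 TPM. The single highest library was R replicate 1, no adjacent periods were separate, and mean TPM was higher in R, at 29.6 ± 45.7, than in Y, at 17.0 ± 8.99 (SD, n = 3 each). This member and Cluster-64249.194198 were the 2 of the 23 whose mean TPM did not fall at every step.

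The other 4 members of the group had means between 24.8 and 47.2 TPM in G and between 1.96 and 7.43 TPM in P. Cluster-64249.107562 had 16.8 TPM in P replicate 3, above all 3 B libraries, but 0.02 TPM in P replicate 2 and 0 in P replicate 1. Cluster-64249.164318 had 12.0, 1.06 and 9.28 TPM in P, against 11.1, 7.4 and 17.2 TPM in B. Cluster-64249.178369 had separate libraries for G and Y, at 19.1 TPM or more and 18.7 TPM or less, and overlap at every later step. Cluster-64249.153707 was steady in G, at 23.9, 26.6 and 24.0 TPM, but its Y libraries ran from 7.18 to 29.5 TPM.

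In 3 members the largest step was from Y to R. Cluster-64249.136893 had 13.7, 16.7 and 16.3 TPM in G, 10.1, 12.2 and 12.1 TPM in Y, 4.53, 3.53 and 4.10 TPM in R, 2.89, 4.03 and 1.64 TPM in B, and 0, 1.44 and 1.81 TPM in P. Y minus R was 1.30 ± 0.38 (SE), and G, Y and R were separate while R and B overlapped. Cluster-64249.226105 showed G, Y and R apart too, with 14.7, 15.4 and 12.5 TPM in G, 10.7, 12.3 and 8.65 TPM in Y and 6.34, 3.26 and 5.74 TPM in R. Cluster-64249.126059 was uneven, with 109, 63.6 and 48.3 TPM in G and 35.5, 7.93 and 10.6 TPM in B, and its Y and R libraries alone were separate.

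**Figure D3:**
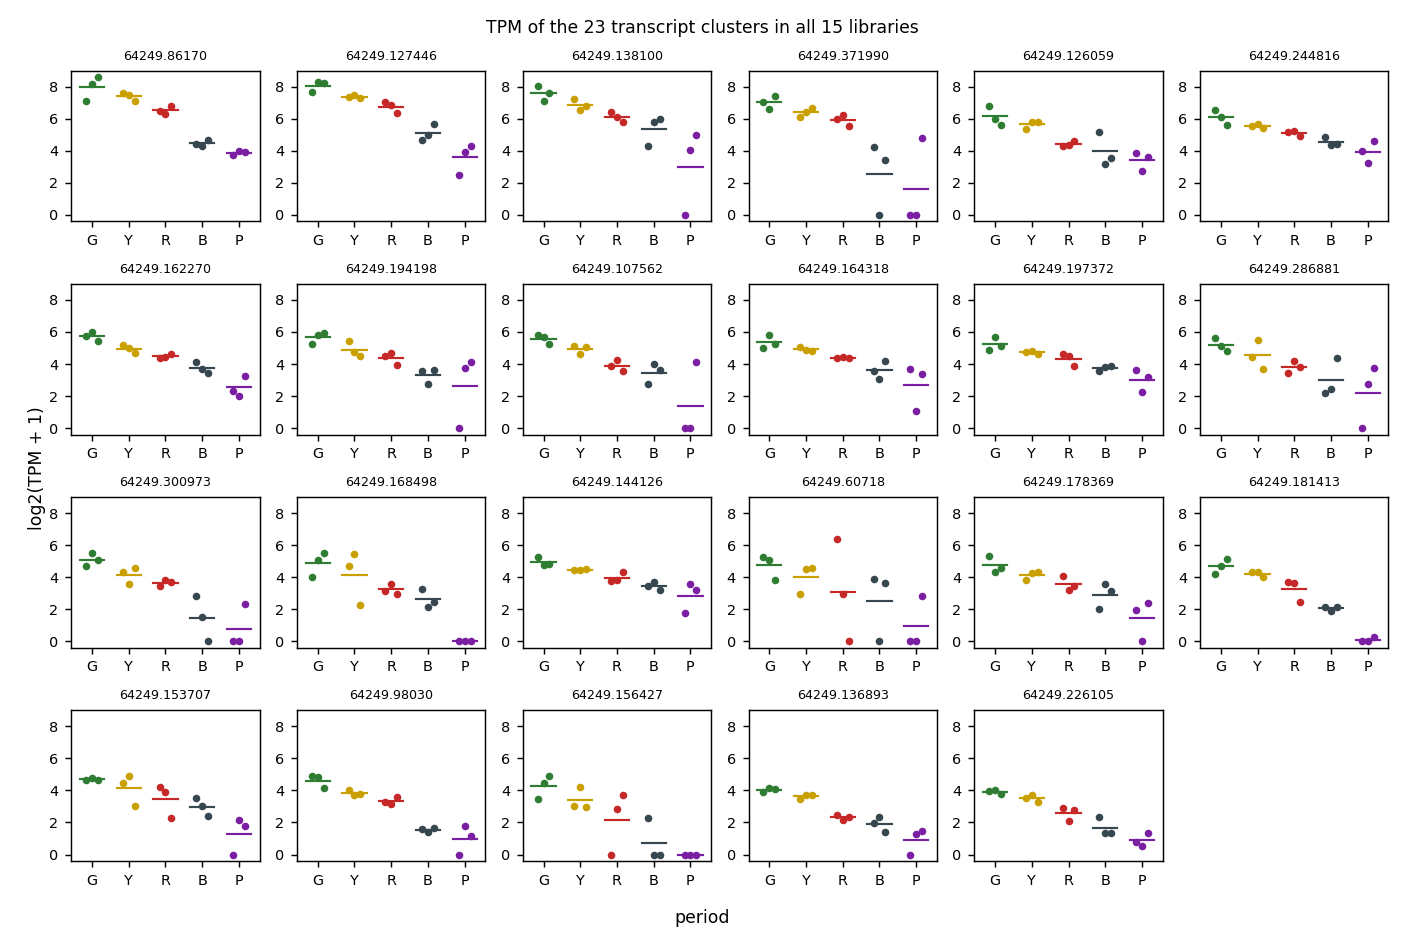
Level of each of the 23 transcript clusters in all 15 libraries on the log2(TPM + 1) scale, 1 panel for each, in order of mean TPM in G; points are libraries, short lines are period means, and periods run from G to P. Cluster-64249.127446 and Cluster-64249.162270 fall without overlap at every step, and in 13 panels P replicate 1 lies at 0.

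Not every step exceeded the spread between libraries. Every G library lay above every P library in all 23, as the rule requires, beside 11.1% of the 138664 transcript clusters. For adjacent periods, 10 of the 23 did not overlap between G and Y (5.43% of all), 14 between Y and R (6.81%), 11 between R and B (8.46%) and 6 between B and P (11.1%). All 4 adjacent pairs were separate in 2 members, 3 in 4 members, 2 in 7, 1 in 7 and none in 3. The rule used these same contrasts, so nothing is read from the counts.

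The limma model, fitted to all tested transcript clusters with Benjamini-Hochberg adjustment, called 22 of the 23 higher in G than in P at an adjusted p under 0.05, beside 3.67% of all 138664. The exception was Cluster-64249.60718. The G minus P call of Cluster-64249.371990 was lost without P replicate 1 or 2, that of Cluster-64249.194198 without any 1 of the G libraries, and that of Cluster-64249.286881 in every leave-out of 1 library other than B replicate 1, B replicate 3 and P replicate 3. The model called 14 higher in G than in B, beside 2.69%, 8 higher in R than in P, beside 2.29%, and 20 of the 23 in the F test over 5 periods, beside 7.44%. Of single steps it called 0 for G minus Y (0.524% of all) and 0 for Y minus R (0.107%), with 1 and 5 at an unadjusted p under 0.05. For R minus B it called 2, Cluster-64249.86170 and Cluster-64249.98030 (1.04% of all), and for B minus P it called 1, Cluster-64249.181413 (0.509%).

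Contrasts of periods that are not adjacent, other than G minus P and G minus B, moved by over 1.5 times with single libraries. Higher in G than in R were 2 (0.935% of all), Cluster-64249.86170 and Cluster-64249.136893, with 0 without G replicate 2 or 3 or R replicate 1 or 2, 1 without R replicate 3, 5 without B replicate 1 or P replicate 1 and 4 without P replicate 3. Higher in Y than in B were 8 (1.85%), with 4 without Y replicate 1 or 2 or B replicate 3 and 5 without B replicate 2. Higher in Y than in P were 20 (3.30%), with 12, 10 and 11 without Y replicates 1, 2 and 3, and the R minus P count became 14 without P replicate 3. Counts over all transcript clusters tested moved as well. G minus R had 702 to 805 without G replicate 2 or 3 or any R library, against 1297. Y minus B had 1270 and 1378 without Y replicates 1 and 2, and 1440 and 1391 without B replicates 2 and 3, against 2567. Y minus P had 2209, 2318 and 2936 without Y replicates 1, 2 and 3, against 4572. R minus P had 4472 without P replicate 3, against 3177.

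The calls of single steps rested on single libraries too. The R minus B count was 1 without G replicate 2, without any 1 of the Y libraries, without R replicate 1 or 2, or without B replicate 2 or 3. The B minus P count was 0 without B replicate 2 or 3 or P replicate 1 or 2, 2 without Y replicate 3 and 4 without P replicate 3. Over all transcript clusters tested, B minus P had 174 to 310 in the first 4 of these leave-outs, against 706. It had 511 without Y replicate 3 and 1929 without P replicate 3. R minus B had 705 to 1334 over all in the leave-outs named for it, against 1438. In the fit each step had the same SE within a member, between 0.30 and 1.38 with a median of 0.53, beside median steps of 0.61 to 0.92. A step that misses the threshold is not shown to be absent. As these contrasts chose the members, the calls describe them and carry no support of their own.

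Spread within a period was not a condition of the rule, yet the rule bears on it. The limits on single G and P libraries bound it. A library listed at 0 lowers its period mean, so rows with such a library in a later period meet a step more easily. On the log2(TPM + 1) scale the median SD between the 3 libraries of a period was 0.41 in G, 0.26 in Y, 0.37 in R, 0.56 in B and 0.95 in P over the 23. Over the 9999 rows with at least 10 TPM in each G library it was 0.29 in G, 0.22 in Y, 0.17 in R, 0.31 in B and 0.39 in P. Over the 15520 rows with a mean of at least 10 TPM it was 0.39 in G, 0.26 in Y, 0.21 in R, 0.36 in B and 0.45 in P. The members' median SD was above both backgrounds in R, B and P, and highest in P, where their level was lowest. In G and Y it was close to that of the 15520 rows. The background rows did not have to meet the steps, so nothing is read from these differences. Cluster-64249.86170 and Cluster-64249.162270 had the smallest mean within-period SD, 0.32 each, and Cluster-64249.60718 the largest, 1.74.

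The P libraries differed from each other in the same direction across most members. P replicate 3 lay above the P mean in 21 of the 23, with a median deviation of 0.66 on the log2(TPM + 1) scale, and P replicate 1 lay above it in 5, with a median deviation of -0.77. Over the 9999 rows the median deviations were 0.15 for P replicate 3 and -0.09 for P replicate 1. The rule chose the 23 for low P means, which a 0 in P replicate 1 lowers, so their deviations are a description. In P replicate 1, 13 of the 23 were listed at 0, in P replicate 2, 7, and in P replicate 3, 2, beside 0 in every G and Y library, 1 each in R replicates 1 and 3, 3 in B replicate 2 and 2 in B replicate 3. Detection and the level of the 23 thus moved together over the P libraries, and the part of detection in the B to P step was not tested. Without P replicate 1, 17 of the 23 still met the rule, and 3 other rows joined them. The 6 that did not were Cluster-64249.144126, Cluster-64249.194198, Cluster-64249.286881, Cluster-64249.300973, Cluster-64249.371990 and Cluster-64249.98030.

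Outside the P libraries, the deviations of members within periods were on average uncorrelated. Over the 253 pairs of members, the mean Pearson correlation of deviations from period means was 0.18 over the 15 libraries and 0.02 over the 12 libraries other than P. Over all pairs of the 9999 rows it was 0.06 and 0.05. These correlations rest on few libraries that share their totals, and they are a description. The pair with the highest value was Cluster-64249.138100 and Cluster-64249.194198, at 0.85, both listed at 0 in P replicate 1, and the lowest was -0.80, between Cluster-64249.144126 and Cluster-64249.197372. All 23 identifiers shared the number before the point, which was also that of 99.9% of the 9999 rows, so the shared number does not set them apart.

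Membership depended on single libraries. With 1 library left out of the rule at a time, between 14 and 23 of the 23 remained. Only Cluster-64249.127446 remained in all 15 such repeats, and Cluster-64249.86170, Cluster-64249.138100 and Cluster-64249.162270 remained in 14 each. Cluster-64249.126059 and Cluster-64249.300973 remained in 8 each, the fewest. The number of rows meeting the rule was 41 without G replicate 1, of which 15 were members, and 35 without P replicate 3, of which all 23 were, and between 17 and 30 without any other library. With period medians in place of means, 12 rows met the rule, 6 of them members. With median-ratio scaling 18 rows met it, 16 of them members. The members lost to that scaling were Cluster-64249.86170, Cluster-64249.107562, Cluster-64249.126059, Cluster-64249.144126, Cluster-64249.244816, Cluster-64249.286881 and Cluster-64249.300973.

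**Figure D4:**
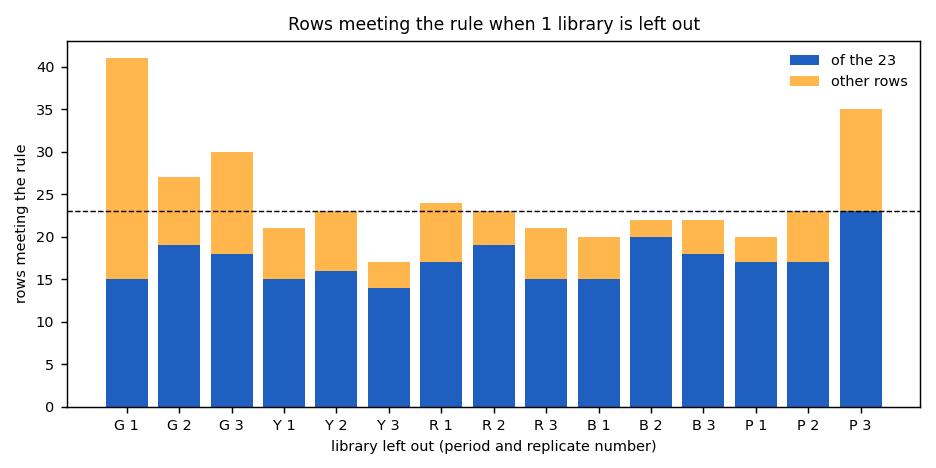
Number of rows that met the rule when 1 library was left out, by the library left out, divided into members of the 23 (lower segment) and other rows (upper segment); the dashed line marks 23. The total runs from 17 to 41 and the members kept from 14 to 23.

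The order was then read in libraries left out of the rule, although the order of the periods itself was set with all 15 libraries. The rule was applied to 2 of the 3 replicate numbers in every period, and the 5 libraries of the third number were read in the rows so chosen. It chose 23 rows without the libraries numbered 1, of which 3 were members of the 23, 30 without those numbered 2, of which 12 were, and 40 without those numbered 3, of which 9 were. In the left-out libraries all 4 steps fell in 2 of 23, 11 of 30 and 8 of 40, which is 8.70%, 36.7% and 20%. Over all rows with at least 10 TPM in the 2 G libraries used, the shares were 6.30% of 12196, 7.81% of 10979 and 3.31% of 11683. The background rows did not have to meet the other conditions of the rule, and the 93 choices of 82 different rows share libraries, so no test is given and nothing is drawn from the difference.

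Single steps in the left-out libraries differed among themselves. Y stood above R in 20 of 23, 28 of 30 and 34 of 40 chosen rows, beside 56.3%, 58.6% and 54.7% of the background rows. G stood above Y in 7 of 23, 23 of 30 and 31 of 40, beside 44.8%, 46.1% and 39.7%, a smaller share than in the background with the libraries numbered 1 left out. R stood above B in 17 of 23, 25 of 30 and 28 of 40, beside 55.3%, 63.2% and 65.0%. B stood above P in 19 of 23, 20 of 30 and 20 of 40, beside 73.5%, 63.2% and 50.5%, shares near the background in the last 2. From end to end, G stood above P in 22 of 23, 26 of 30 and 38 of 40, beside 73.0%, 72.2% and 60.8%. The median left-out G minus P was 2.64, 2.69 and 1.69 on the log2(TPM + 1) scale, against 3.51, 3.56 and 3.94 in the libraries that made the choice. Here too the background rows did not have to meet the steps or the ratio of G to P. Nothing is drawn from the differences of single steps or of G from P.

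**Figure D5:**
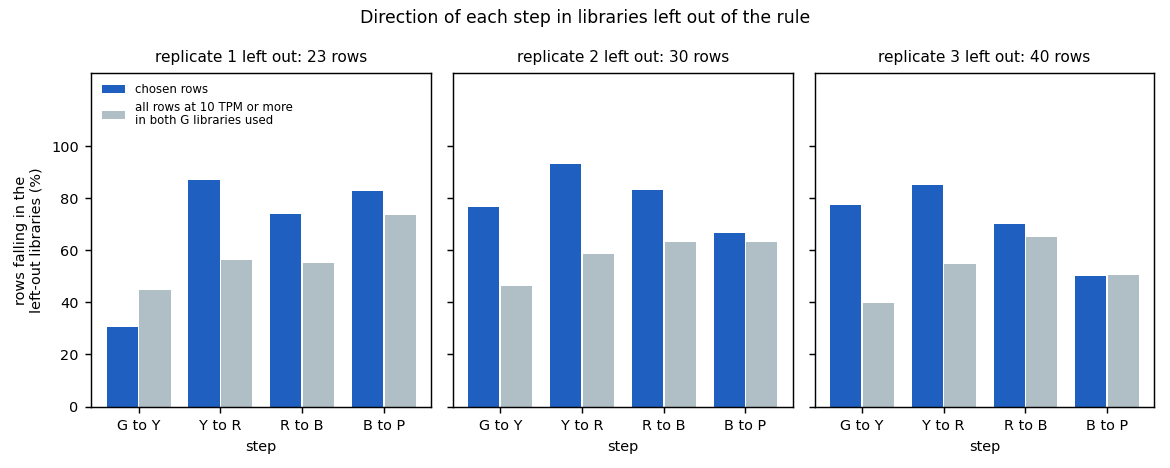
Share of rows, in percent, in which each step fell in the 5 libraries left out of the choice, for each replicate number left out; blue bars are the rows chosen on the other 10 libraries and grey bars all rows with at least 10 TPM in the 2 G libraries used. Blue bars exceed grey ones for Y to R and R to B in all 3 panels, but G to Y is lower in the chosen rows with replicate 1 left out, and B to P is close to the grey bar with replicate 2 or 3 left out. Rows in the grey bars did not have to meet the other conditions of the rule, so nothing is drawn from the differences.

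Cluster-64249.127446 was chosen in all 3 of these repeats, and in each its left-out libraries fell at all 4 steps. Cluster-64249.162270 was chosen in 2 repeats and fell at all 4 steps in both. The libraries of both members fell without overlap from period to period, so any left-out libraries of theirs had to fall. Nothing is drawn from these falls. Of the 23, 8 were chosen in none of the 3.

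When the P libraries were not used at all, most rows that met the first 3 steps did not fall further from B to P. Steps of at least 0.4 from G to Y, Y to R and R to B, with G minus Y under 1 and at least 10 TPM in each G library, were met by 133 rows, the 23 included. In these, the B mean was above the P mean in 45 and below it in 88, and the median B minus P was -0.35. The same median over the 9999 rows was 0.26, with B above P in 71.7%. With median-ratio scaling the 2 medians were -0.56 and 0.00, and B was above P in 33 of the 133. Rows chosen for low values in the B libraries share those libraries with this contrast, and how far that sets its direction was not tested. The 23 are among the 45. How the P levels of the 133 compare with those in G, Y or R is not given here.

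At the lower limits on G minus Y and Y minus R, the nearest member differed little from the nearest row outside. At the limits on B minus P and on the ratio of G to P, they lay further apart. Cluster-64249.226105 had a G minus Y of 0.402, and Cluster-64249.107389, not a member, had 0.399. Cluster-64249.197372 had a Y minus R of 0.403, and Cluster-64249.115999, just outside, had 0.392. For R minus B, Cluster-64249.107562 had 0.431 inside and Cluster-64249.137480 had 0.384 outside, and for B minus P, Cluster-64249.126059 had 0.545 inside and Cluster-64249.158545 had 0.321 outside. At the upper limit on G minus Y, Cluster-64249.300973 had 0.937 inside and Cluster-64249.289977 had 1.02 outside. The lowest G library inside was 10.2 TPM, in Cluster-64249.156427, and 9.61 TPM outside, in Cluster-64249.107645. The smallest ratio of lowest G to highest P was 2.06 inside, in Cluster-64249.244816, and 1.75 outside, in Cluster-64249.92242. Of the rows that failed a single step alone, 99 failed G minus Y, 58 Y minus R, 36 R minus B and 49 B minus P.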

How the data were processed

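The deposited table holds TPM computed by the authors, per its name and column sums, in 462117 rows and 15 columns, each matched to a library by title. The columns summed to between 999997 and 1000003. Fragmented mRNA was reverse transcribed from random oligonucleotides, per the labels' protocols. Builds GRCm38 and mm10, which are of mouse, stand in the submitters' processing notes. The assembler and the quantifier were not given in the sources used here. TPM keeps no read depth, so no counting interval is given.

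The rule was applied to all rows. A transcript cluster was tested if it had at least 1 TPM in at least 3 libraries (138664). One limma model with 5 period means was fitted to log2(TPM + 1) of all 15 libraries (limma 3.58.1, R 4.3.3, variance trend, 10 residual degrees of freedom), with Benjamini-Hochberg adjustment within each of 10 contrasts and the F test. The fold change on this scale understates that of low values. P-values measure only the spread between these samples. The model and the rule were tested on simulated data. Other steps ran in Python 3.11.15 (NumPy 2.4.6, pandas 2.3.3). No 2 libraries were identical.

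The members and lists were chosen with earlier results of these data known. Named were the most abundant, most and least fallen, most even, least and most variable and threshold members; Cluster-64249.98030, Cluster-64249.153707 and Cluster-64249.178369 are outside that rule and were named after their values were seen, to account for every member. The alternatives were other pseudocounts, filters, scaling, limits, period medians, a replicate block, no variance trend, fits on 6 libraries, a joint adjustment and leaving out libraries.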

Additional observations from a re-analysis of the deposited data

How the results depend on the processing

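The number of rows meeting the rule was 12 with period medians, 40 with a smallest step of 0.3, 10 with 0.5, 49 with no upper limit on G minus Y, 15 with at least 20 TPM in each G library and 133 with the P libraries not used, the last an alternative chosen after seeing the data; it was 27 with a pseudocount of 0.1 and 18 with median-ratio scaling, of which 16 were members. Leaving out libraries gave 17 to 41. With a pseudocount of 0.1 the median G minus P of the 23 was 4.58. Over single leave-outs that median ran from 3.13 to 3.79, and the median steps from 0.56 to 0.62 for G minus Y, 0.56 to 0.78 for Y minus R, 0.70 to 1.04 for R minus B and 0.77 to 1.45 for B minus P. The median of the members' mean within-period SD was 0.53, and 0.47 to 0.60 over the leave-outs. All 4 steps fell in the left-out libraries in 25 of 118 choices with a pseudocount of 0.1 and in 15 of 78 with median-ratio scaling, against 21 of 93; these and the SDs under other settings were added after seeing the data.

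Of the 23, limma called these numbers higher in the first-named period. With a pseudocount of 0.1 it called 1 for G minus R, 9 for G minus B, 4 for Y minus B, 1 for R minus B and 2 for B minus P, against 2, 14, 8, 2 and 1. Over all 138664 it called 835, 3033, 2070, 1212 and 557, against 1297, 3733, 2567, 1438 and 706. With no filter it called 0 for G minus R, 5 for Y minus B, 13 for Y minus P, 1 for R minus B, 0 for B minus P and 13 in the F test, where Y minus P had 20 and the F test 20. Over all 406956 then tested it called 794, 1514, 2484, 851, 184 and 6216. With the filter, Y minus P had 4572 and the F test 10313 of 138664. With a minimum of 10 on mean TPM, leaving 19 of the 23 tested, it called 4 for G minus R, 13 for R minus P and 3 for B minus P, against 8 for R minus P. Over all 16567 then tested it called 706, 2954 and 588, against 1297, 3177 and 706 of 138664. Median-ratio scaling gave 6 for G minus R and 1 for R minus B, no variance trend 1 for each of these, and joint adjustment 2 for B minus P. Over all tested, these counts were 1518 and 1340 of 133773, 1152 and 1159 of 138664, and 1476 of 138664. Fits on 6 libraries alone gave 9 for G minus B, 7 for G minus P, 5 for Y minus B, 5 for Y minus P, 2 for R minus P and 0 for B minus P. They have fewer samples, and calls over all 138664 fell as well. Those were 1146, 614, 1195, 993, 705 and 17, against 3733, 5088, 2567, 4572, 3177 and 706. The cause of these and of the other changes was not tested. Leave-outs gave 0 in all for G minus Y and Y minus R, 0 to 5 for G minus R, 10 to 18 for G minus B, 20 to 22 for G minus P, 4 to 10 for Y minus B, 10 to 21 for Y minus P, 1 to 3 for R minus B, 6 to 14 for R minus P, 0 to 4 for B minus P and 15 to 22 in the F test. Over all transcript clusters tested, the leave-out counts ran from 3172 to 6262 for G minus P and 2209 to 6054 for Y minus P. For G minus B they ran from 2460 to 4237, and for Y minus B from 1270 to 2959. They ran from 1467 to 4472 for R minus P and 7949 to 11989 in the F test. G minus P of each of the 23 stayed positive in every setting that gave a value.

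With the replicate block the counts were 1 for R minus B, 0 for B minus P and 20 for G minus P. Over all 138664 they were 1146, 376 and 4353. Libraries with the same replicate number did not deviate together, with correlations from -0.06 to 0.08 over 10 pairs of periods, so the numbers are not taken as pairs; the best-correlated library of another period had the same number in 22 of 60 cases. Read depth, which TPM does not keep, limits every value listed at or near 0.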
